A study of Mus musculus with 28 samples.

Results

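The comparison described here asks what adding Hand2 does to mouse embryonic fibroblasts (MEFs) that already receive NKX2.5 and the 3 factors GATA4, MEF2C and TBX5. It was formed from the sample titles: HNGMT replicates 1 to 3 against NGMT replicates 4 to 6, which is 6 of the 28 arrays of the study. NGMT cells carried doxycycline-inducible lentiviruses for NKX2.5, GATA4, MEF2C and TBX5, and HNGMT cells carried the same set plus Hand2. Both groups, and all other factor-treated groups, also received a virus for rtTA, the doxycycline-dependent activator, and a reporter in which a troponin T promoter drives the calcium sensor GCaMP5 and zeocin resistance. Doxycycline was given at 2 µg/mL. Cells were harvested on day 21, after 7 days under 300 µg/mL zeocin, so every culture compared here was enriched for cells with an active troponin T promoter. The titles call the replicates biological, and the labels say that they were independent. The same Hand2 addition without NKX2.5, HGMT replicates 1 to 3 against GMT replicates 3 to 5, was measured on arrays of the same series and is used to show where the effect differs. In those names G, M and T stand for GATA4, MEF2C and TBX5, N for NKX2.5 and H for Hand2.

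Hand2 is a basic helix-loop-helix transcription factor that pairs with E proteins and binds E-box DNA. It is needed for the right ventricle, the outflow tract, limb patterning and sympathetic neurons, and is also expressed in the epicardium. NKX2.5 is a homeodomain factor of the early heart field that works with GATA4 and TBX5 on cardiac promoters, that of the atrial natriuretic peptide gene Nppa among them.

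RNA was read on single-channel arrays with 35556 probe sets, and the deposited values are log2 signal. Array names and value distributions place 15 arrays in the second of 3 array series, with medians from 6.86 to 6.95. Of these, the 12 arrays of GMT, NGMT, HGMT and HNGMT were fitted together. A gene was tested when its best probe set, the one with the highest mean over all arrays, lay above the array median on at least 3 of the 12 arrays. This left 11310 genes, of which 10406 were above the median on all 12. A gene was called when its adjusted p in limma's two-sided moderated test was under 0.05. The half-width of the 95% interval of HNGMT minus NGMT had a median of 0.18 log2 over genes. Differences below are on the log2 scale, as HNGMT minus NGMT, with the standard error (SE) of the fit and 3 arrays in each group.

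HNGMT replicate 1 stood apart. Its correlation with the other HNGMT arrays was 0.967 and 0.973 over the genes tested, while every other pair of arrays within a group reached at least 0.988. On the second principal component, which held 24% of the variance, it lay at 30.5 and the other 11 arrays lay between -9.1 and 2.8. Its estimated array weight was 0.0575, against 0.312 to 4.24 for the others. In 135 genes its signal was at least 2-fold from the mean of replicates 2 and 3, 133 of them higher and 2 lower (Mir143 and Mir145a, chosen after their values were seen). Small nucleolar and Cajal body RNAs, which guide the modification of ribosomal and spliceosomal RNA, made up 26 of the 135. Of the 39 such genes tested, 36 had their highest signal of all 12 arrays on HNGMT replicate 1, with a median deviation of 1.49 against -0.09 for all other genes. GMT replicate 5 was the next most distant array, with 44 genes beyond 2-fold.

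**Figure D1:**
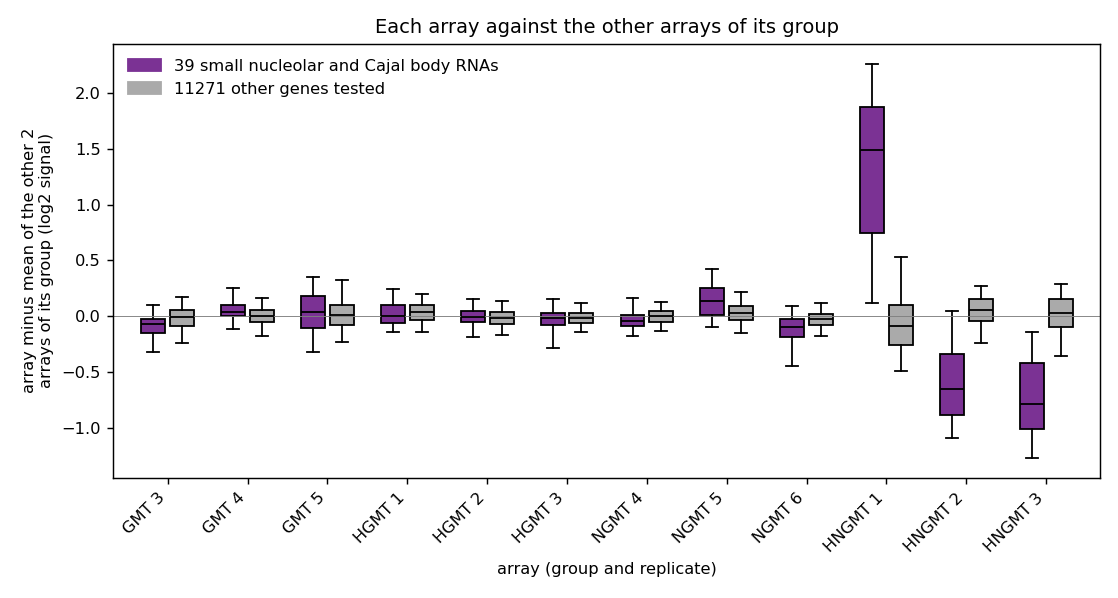
Signal of each of the 12 arrays minus the mean of the other 2 arrays of its group (log2 scale), for 39 small nucleolar and Cajal body RNAs and for the other genes tested. Boxes show quartiles and median, whiskers the 5th to 95th percentile; only HNGMT replicate 1 has its small RNAs well above the others of its group, with a median of 1.49.

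The 6 genes in which HNGMT replicate 1 lay farthest from its group were Rnu3a, Rny1, Rnu12, Snord22, Wfdc17 and Zfp931. Rnu3a, the U3 small nucleolar RNA, gave 10.92 on replicate 1, and 6.81 and 7.00 on replicates 2 and 3, beside 6.51, 7.00 and 6.58 in NGMT. Rny1, a Y RNA, gave 9.68, 6.23 and 6.19, beside 6.26, 7.39 and 6.53. Rnu12, a spliceosomal RNA, gave 11.35, 7.80 and 8.03, beside 7.36, 7.39 and 7.32. Apart from replicate 1, the HNGMT values of Rnu3a and Rny1 lay within or near the NGMT range. Wfdc17, a small secreted protein gene of myeloid cells, gave 10.90, 9.65 and 6.96 on HNGMT replicates 1 to 3 and 7.32 to 7.65 in NGMT. None of the 6 was called in the 12-array fit (adjusted p from 0.111 to 0.588). In a fit of all 28 arrays Rnu3a (1.54, adjusted p = 0.0282), Rnu12 (1.70, 0.00589) and Wfdc17 (1.68, 0.00852) were called. With array weights Rnu12 (0.53, adjusted p = 0.0175) and Wfdc17 (1.74, 0.00234) were called. Rnu12 was called at 0.56 without replicate 1 (adjusted p = 0.000529) and at 2.33 without replicate 2 (0.0365), and Wfdc17 at 2.80 without replicate 3 (0.000101). Without replicate 1, Rny1 turned to -0.52, Snord22 to -0.21 and Zfp931 to -0.37, none of these 3 called. Of the 39 small nucleolar RNAs tested, 0 were called with all 12 arrays, where 4.24% of all genes tested were higher and 9.92% lower. Without replicate 1, 0 were higher and 4 lower, where all genes had 6.79% and 13.5%.

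With NKX2.5 present, adding Hand2 raised the enzyme genes Inmt and Aldh3a1, the surface proteoglycan gene Gpc3, the calcium store gene Casq2 and the cardiac factor gene Tbx20. It lowered the atrial genes Nppa, Myl7 and Myl4, the troponin gene Tnni3, the desmin gene Des and most interferon response genes tested, while Tnnt2 was not called. In all, the addition changed 1601 of the 11310 genes tested, which is 14.2%. Of these, 479 rose (4.24%) and 1122 fell (9.92%). The change was at least 2-fold in 147, of which 81 rose and 66 fell. In 1595 of the 1601 the HNGMT and NGMT arrays did not overlap, and they also did not overlap in 2283 genes that were not called. Without HNGMT replicate 1 more genes were called, 768 higher (6.79%) and 1529 lower (13.5%). Of the 1601, 1472 were then called again in the same direction, 129 were not called and 0 were called in the opposite direction. Of the 147 genes beyond 2-fold, 146 were called again, the exception being Lyz2. Leaving out an NGMT array lowered the count to 938 (replicate 4), 1011 (replicate 5) or 900 (replicate 6). Rises made up 29.9% of the calls. That share was 33.4% without HNGMT replicate 1, 37.6% with quantile normalization of the 12 arrays (562 higher and 934 lower) and 21.2% with median centring (467 and 1738). With quantile normalization and HNGMT replicate 1 left out together it was 44.8% (1010 and 1245). In 36 of the 147, all 3 arrays of 1 group lay below the array median.

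The promoters of the 3 genes with the largest rises and the 3 with the largest falls that have an entry in RefSeq's promoter table (build GRCm38.p6, 250 bases before to 50 after the annotated start) are shown because these genes changed most and in all 3 HNGMT arrays. Hand2 itself, delivered by virus, and Aldh3a1, which has no entry, are left out. Capitals mark CATCTG, an E-box reported for Hand2, or its reverse complement CAGATG.
Inmt (chr6:55174941-55175240, minus strand): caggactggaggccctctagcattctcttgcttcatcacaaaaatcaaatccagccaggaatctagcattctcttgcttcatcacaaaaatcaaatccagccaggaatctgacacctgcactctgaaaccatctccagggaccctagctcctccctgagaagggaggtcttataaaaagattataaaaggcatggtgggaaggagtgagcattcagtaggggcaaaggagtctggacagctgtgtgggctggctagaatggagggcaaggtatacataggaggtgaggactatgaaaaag
Gpc3 (chrX:52613925-52614224, minus strand): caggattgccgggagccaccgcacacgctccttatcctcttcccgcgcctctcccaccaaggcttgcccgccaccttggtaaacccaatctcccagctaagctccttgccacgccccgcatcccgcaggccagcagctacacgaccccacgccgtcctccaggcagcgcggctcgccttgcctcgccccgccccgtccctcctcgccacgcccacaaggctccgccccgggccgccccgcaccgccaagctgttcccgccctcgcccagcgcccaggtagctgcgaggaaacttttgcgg
Pcolce2 (chr9:95637378-95637677, plus strand): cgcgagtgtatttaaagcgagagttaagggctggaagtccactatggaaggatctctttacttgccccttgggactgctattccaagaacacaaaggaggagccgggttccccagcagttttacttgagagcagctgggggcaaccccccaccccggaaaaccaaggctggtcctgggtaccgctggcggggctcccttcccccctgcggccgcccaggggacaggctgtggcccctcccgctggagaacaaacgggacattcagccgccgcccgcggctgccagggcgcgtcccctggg
Hsd3b6 (chr3:98814394-98814693, minus strand): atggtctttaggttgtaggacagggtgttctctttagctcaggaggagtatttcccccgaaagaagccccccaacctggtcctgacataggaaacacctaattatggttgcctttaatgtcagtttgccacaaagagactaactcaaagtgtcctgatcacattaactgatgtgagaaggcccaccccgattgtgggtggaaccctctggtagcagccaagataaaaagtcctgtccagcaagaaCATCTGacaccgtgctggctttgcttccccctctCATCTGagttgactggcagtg
Cck (chr9:121495645-121495944, minus strand): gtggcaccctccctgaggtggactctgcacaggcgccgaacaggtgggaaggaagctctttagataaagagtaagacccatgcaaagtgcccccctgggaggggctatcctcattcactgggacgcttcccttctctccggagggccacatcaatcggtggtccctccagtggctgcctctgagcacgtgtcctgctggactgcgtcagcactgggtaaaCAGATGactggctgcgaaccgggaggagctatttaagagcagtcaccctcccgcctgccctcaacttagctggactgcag
Gpr165 (chrX:96713218-96713517, plus strand): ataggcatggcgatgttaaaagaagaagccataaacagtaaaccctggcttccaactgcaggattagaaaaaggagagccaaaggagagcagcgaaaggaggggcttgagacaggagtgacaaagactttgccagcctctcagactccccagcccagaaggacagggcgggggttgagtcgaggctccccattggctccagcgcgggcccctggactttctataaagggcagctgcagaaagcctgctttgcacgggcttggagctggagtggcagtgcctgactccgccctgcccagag
The letters CATCTG or CAGATG occurred in 0 of the 3 promoters shown for rises. Among falls, they occurred in Hsd3b6, beginning 5 bases before and at base 30 after the start, and in Cck, beginning 30 bases before the start. Over all tested genes with an entry, 1000 of 9044 promoters (11.1%) held a match on either strand. The share was 16.1% among genes called higher (56 of 348) and 10.8% among genes called lower (95 of 880). Among those beyond 2-fold it was 19.7% for rises (12 of 61) and 18.4% for falls (9 of 49). These shares are a description, and a match in such a window is not a binding site.

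Of the 5 delivered factors, only Hand2 was called. Hand2 gave 7.30, 7.37 and 7.27 in NGMT and 9.80, 10.05 and 10.15 in HNGMT, a difference of 2.69 ± 0.10 (adjusted p = 8.28e-09). The groups did not overlap, and the HGMT arrays gave a like level of 9.97, 10.15 and 10.09. The Nkx2-5 probe set gave 7.95, 7.92 and 8.02 in NGMT and 7.99, 7.92 and 8.07 in HNGMT, and a mean of 7.94 in GMT cells, which received no NKX2.5. It thus does not separate cells with and without that virus, and the labels do not say whether these probe sets read transcripts of the viruses. Gata4, Mef2c and Tbx5 differed by 0.07, 0.09 and -0.21 and were not called (adjusted p from 0.326 to 0.625). Tbx5 was 7.39 on HNGMT replicate 1 and 7.91 to 8.11 on the other 5 arrays.

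The largest rise was that of Inmt, an indolethylamine N-methyltransferase. Its signal was 5.82, 5.73 and 5.93 in NGMT and 11.15, 10.60 and 10.89 in HNGMT. The difference of 5.05 ± 0.14 is a 33.2-fold change from a level below the array median (adjusted p = 6.07e-10). Gpc3, a heparan sulfate proteoglycan of the cell surface, gave 8.94, 9.11 and 8.98 in NGMT and 12.15, 12.24 and 12.31 in HNGMT, a 9.35-fold rise. Aldh3a1, an aldehyde dehydrogenase, gave 7.10, 7.16 and 7.18 against 10.11, 10.36 and 10.38, an 8.79-fold rise. In none of these genes did any HNGMT array approach the NGMT range. Pcolce2, an enhancer of procollagen processing, rose by 2.95 ± 0.10, and Ptn, the heparin-binding growth factor pleiotrophin, by 2.37 ± 0.10. Serpind1 (heparin cofactor II), Frem1 (a basement membrane protein) and Gucy1b1 (a subunit of soluble guanylate cyclase) rose by 2.26, 2.15 and 2.06. Ctla2a, related to the propeptide of cysteine proteases, was more scattered. It gave 5.02, 5.39 and 5.12 in NGMT and 7.97, 7.33 and 6.57 in HNGMT, a rise of 2.11 ± 0.27 that was 1.77 without replicate 1. Erv3, annotated as an endogenous retroviral gene, rose by 2.39.

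The largest fall was that of Hsd3b6, a steroid dehydrogenase. Its signal was 8.71, 8.72 and 8.81 in NGMT and 5.27, 5.58 and 5.56 in HNGMT, a difference of -3.28 ± 0.14 (adjusted p = 3.65e-08). All HNGMT arrays then lay below the array median. Cck, the peptide hormone cholecystokinin, gave 9.71, 9.71 and 9.99 against 7.27, 6.42 and 7.13, a 7.3-fold fall. Sp100, a nuclear body protein inducible by interferon, gave 8.94, 8.76 and 9.05 against 6.16, 6.54 and 6.41, a 5.85-fold fall. For all 3 genes the lowest NGMT array stayed more than 1 log2 unit above the highest HNGMT array. Gpr165, a G protein-coupled receptor gene, fell by 2.58 and Fibin by 2.49. Pvalb, the calcium buffer parvalbumin, fell by 2.25, Coch by 1.97, Plac8 by 1.93 and the gelatinase Mmp9 by 1.89. NGMT replicate 6 was low for Mmp9 (8.48, against 9.51 and 9.52), yet above the 7.11 to 7.51 of HNGMT.

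**Figure D2:**
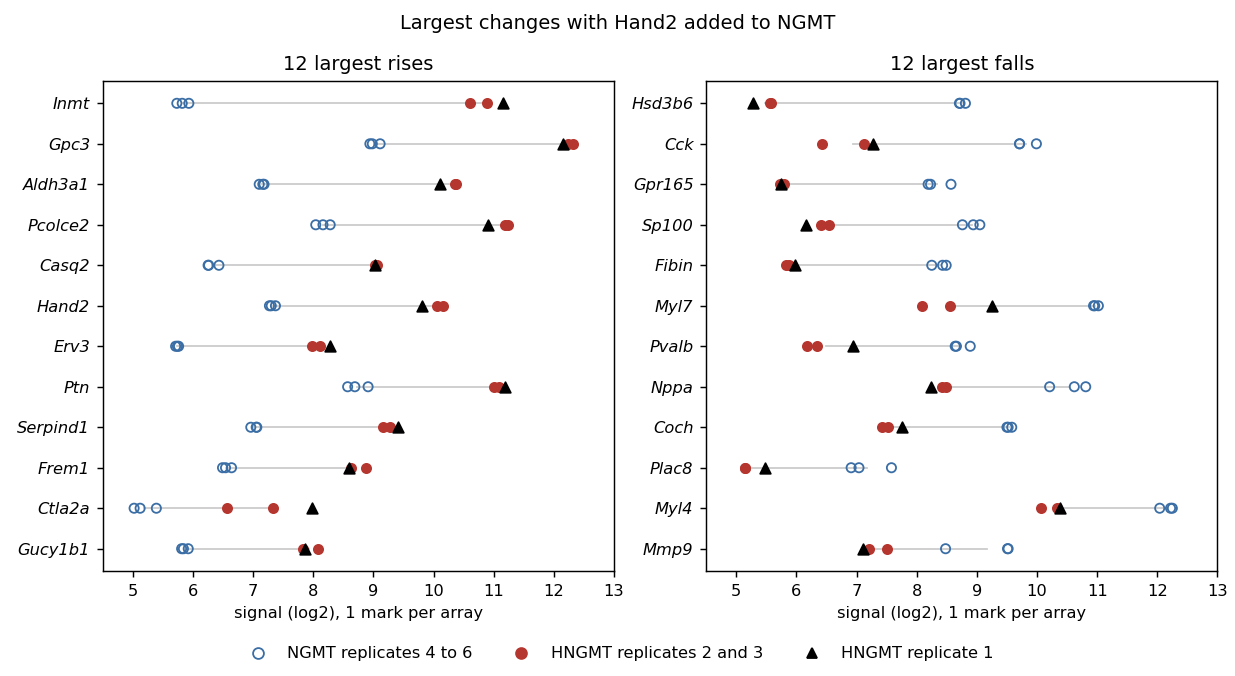
Log2 signal on each NGMT and HNGMT array for the 12 genes with the largest rises and the 12 with the largest falls among called genes without overlap. Circles and triangles are single arrays and grey lines join group means. HNGMT replicate 1 (triangles) lies on the same side as replicates 2 and 3 in all 24 genes, which the choice of genes without overlap fixed in advance.

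Among contractile genes, Tnnt2, the troponin T gene whose promoter drove the selection, was 12.40 to 12.61 in NGMT and 12.37 to 12.62 in HNGMT, a difference of -0.01 ± 0.07 that was not called (adjusted p = 0.953). Of 38 sarcomere genes listed, 22 were tested. Of those, 2 rose and 5 fell, and the same counts were 3 and 5 without HNGMT replicate 1. Over all genes tested 4.24% rose and 9.92% fell, or 6.79% and 13.5% without that array. Ttn, Myh7, Myl2 and Myl3, sarcomere genes of striated muscle, were above the array median on too few arrays to be tested. In contrast, Tnnt2, Actc1, Myl4, Myl7 and Tnni3 lay above it on all 6 arrays. Actc1, cardiac actin, was not called (-0.24 ± 0.12, adjusted p = 0.225), and Myh6, the alpha myosin heavy chain, was 6.65 to 6.80 in NGMT and 6.87 to 7.39 in HNGMT (0.40 ± 0.13, adjusted p = 0.054). Without replicate 1 Myh6 passed at 0.53 (adjusted p = 0.00934). Because these are bulk cultures, fewer cells of a type and less RNA per cell cannot be told apart for any gene here.

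The sarcomere genes that fell included the atrial light chains and the cardiac inhibitory troponin. Myl7, the atrial regulatory light chain, gave 11.02, 10.94 and 10.96 in NGMT and 9.26, 8.09 and 8.56 in HNGMT, a 5.06-fold fall (-2.34 ± 0.23, adjusted p = 3.79e-05). Myl4, the atrial essential light chain, gave 12.25, 12.04 and 12.22 against 10.38, 10.07 and 10.34, a 3.75-fold fall. Tnni3, cardiac troponin I, gave 10.43, 10.38 and 10.49 against 8.66, 8.34 and 8.73, a 3.63-fold fall. In each the 3 HNGMT arrays were far below all NGMT arrays, and HNGMT replicate 1 was the least reduced for Myl7. Smpx, a small muscle protein chosen after its values were seen, fell by 1.67 ± 0.16. Fhl2, a LIM-domain partner of cardiac transcription factors that is prominent in the ventricle, moved the other way. It gave 9.77, 9.56 and 9.66 in NGMT and 10.99, 11.02 and 11.05 in HNGMT, a rise of 1.35 ± 0.06.

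Of 8 atrial and natriuretic genes tested, 2 rose and 4 fell, where 4.24% and 9.92% of all genes did. Their median was -0.47 against -0.05 over all genes tested, and the counts were the same without HNGMT replicate 1. Nppa, atrial natriuretic peptide, gave 10.81, 10.21 and 10.62 in NGMT and 8.23, 8.42 and 8.48 in HNGMT, a 4.5-fold fall (-2.17 ± 0.15, adjusted p = 2.04e-06). Its HNGMT level was still above that of GMT cells, which gave 7.56, 7.58 and 7.87, and the lowest level was in HGMT cells at 6.13, 6.38 and 5.98. The 4 groups thus stood in the order NGMT, HNGMT, GMT, HGMT, with no overlap between neighbours. Nppb, the related brain natriuretic peptide (chosen after its values were seen), fell by 0.66 ± 0.10, from 7.36 to 7.64 in NGMT to 6.77 to 6.99 in HNGMT. Only 3 ventricular genes were tested, and of these Fhl2 rose.

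**Figure D3:**
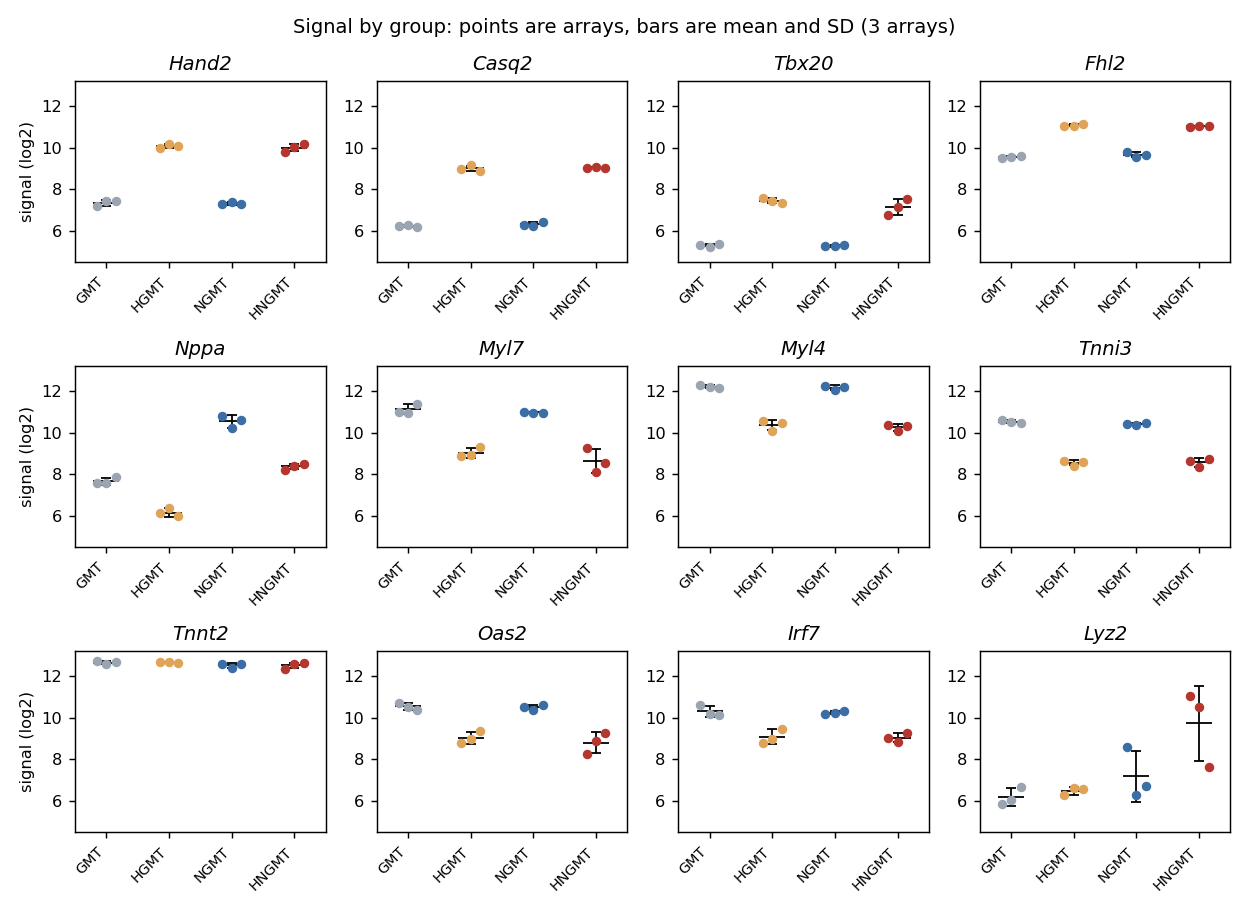
Log2 signal of 12 genes in GMT, HGMT, NGMT and HNGMT cells, with 3 arrays per group as points and the mean and SD as bars. Hand2, Casq2, Tbx20 and Fhl2 are high in both groups with Hand2, Nppa is highest in NGMT, Tnnt2 is level, and Lyz2 is scattered in NGMT and HNGMT.

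Of 20 calcium handling genes tested, 1 rose and 3 fell, close to the 4.24% and 9.92% over all genes. Without HNGMT replicate 1, 5 rose and 3 fell, where all genes had 6.79% and 13.5%. The one that rose with all arrays was Casq2, the cardiac calsequestrin that stores calcium in the sarcoplasmic reticulum. Casq2 gave 6.26, 6.25 and 6.43 in NGMT, below the array median, and 9.03, 9.05 and 9.02 in HNGMT, a 6.59-fold rise (2.72 ± 0.08, adjusted p = 6.07e-10). The 3 HNGMT arrays agreed within 0.03 log2 (SD 0.01). Cacna1d, an L-type calcium channel subunit, fell by 0.82 ± 0.14. Trdn, triadin, which anchors calsequestrin to the ryanodine receptor, fell by 0.73 ± 0.19, but that call was lost when any of NGMT replicates 4 to 6 or HNGMT replicates 2 or 3 was left out (adjusted p from 0.0512 to 0.0941). Ryr2 and Atp2a2 differed by -0.11 and -0.26 and were not called. Among 11 channel and junction genes, 2 rose and 4 fell. The pacemaker channel Hcn4 rose by 0.66 ± 0.13, and Popdc3, of the Popeye domain family, fell by 0.51 ± 0.08. With the 6 arrays fitted alone, Trdn and Hcn4 were not called (adjusted p = 0.0579 and 0.054).

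Other cardiac transcription factors included one large change. Tbx20, a T-box factor of the developing heart, was 5.25 to 5.33 in NGMT and 6.75, 7.12 and 7.54 in HNGMT, a 3.61-fold rise from below the array median (1.85 ± 0.15, adjusted p = 7.33e-06). Tbx3, a T-box repressor of the conduction system, fell by 0.67 ± 0.10. Gata6 rose by 0.48 ± 0.12, a call lost without NGMT replicate 4 or 5 (adjusted p = 0.0672 and 0.0663). That call was also lost with the 6 arrays fitted alone (0.0928). In all, 3 of 22 such factors rose and 2 fell, where 4.24% and 9.92% of all genes did. Of 11 Hand and Twist family members, partners and inhibitors tested, only Hand2, Id2 and Id3 were called. Id2, which sequesters E proteins, rose by 0.36 ± 0.05. Id3 fell by 0.37 ± 0.11, but was not called without HNGMT replicate 1 (-0.27, adjusted p = 0.0694). Its call was also lost without NGMT replicate 5 or 6 or any HGMT array (adjusted p from 0.0532 to 0.127). The same was so with the 6 arrays fitted alone (0.156). Of 17 tested genes linked to Hand2 in heart, limb, branchial arch or sympathetic neurons, 3 rose and 3 fell. Among them Grem1, a BMP antagonist of the limb bud, gave 11.53 to 11.59 in NGMT and 10.19, 10.52 and 10.83 in HNGMT (-1.04 ± 0.14). Their median of -0.01 lay near that of all genes tested.

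Interferon response genes fell together. Of 34 tested, 0 rose and 23 fell, against 9.92% falls over all genes tested, and 25 fell without HNGMT replicate 1. Their median was -0.46, and the same without replicate 1, beside -0.05 and -0.03 over all genes. Oas2, an antiviral oligoadenylate synthetase, gave 10.52, 10.40 and 10.62 in NGMT and 8.27, 8.90 and 9.25 in HNGMT (-1.71 ± 0.21, adjusted p = 0.000204). Irf7, a transcription factor of the type I response, fell by 1.19 ± 0.17, and Rsad2 (viperin) by 1.12 ± 0.12. Cxcl10, Ifitm3 and Irf1 were among the 11 members not called, with differences of -0.11, 0.01 and 0.04. The mean log2 signal of the 34 members was 9.75, 9.77 and 9.89 on the NGMT arrays and 9.27, 9.15 and 9.36 on the HNGMT arrays. The groups did not overlap in this mean, and HNGMT replicate 1 lay between replicates 2 and 3.

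Inflammatory cytokines and acute phase genes were called lower in 7 of 26 cases and higher in 2, with 10 lower and 2 higher without HNGMT replicate 1. All genes tested had 9.92% lower and 4.24% higher, or 13.5% and 6.79% without that array. Il33, an alarmin cytokine, gave 10.34, 10.03 and 10.53 against 8.95, 8.70 and 8.90, and Ptgs2, cyclooxygenase 2, fell by 1.27 ± 0.08. Il6 gave 6.68, 6.75 and 7.04 in NGMT and 8.80, 7.59 and 7.36 in HNGMT. Its rise was 1.09 ± 0.30 with all arrays (adjusted p = 0.0292) and 0.65 without HNGMT replicate 1 (adjusted p = 0.0173). The call was lost without any one of the NGMT arrays (adjusted p from 0.055 to 0.103) and with the 6 arrays fitted alone (0.122). Macrophage markers moved with single arrays. Lyz2, lysozyme of myeloid cells, gave 8.59, 6.29 and 6.70 in NGMT and 11.03, 10.50 and 7.66 in HNGMT, so the groups overlapped. It was called with all arrays (2.54 ± 0.75, adjusted p = 0.0422) and not without HNGMT replicate 1 (1.89, adjusted p = 0.0975), HNGMT replicate 2 or NGMT replicate 5 or 6 (adjusted p from 0.102 to 0.151), or GMT replicate 3 or 4 or any HGMT array (0.0565 to 0.063). With the 6 arrays fitted alone Lyz2 was not called either (adjusted p = 0.172). Only 4 of 22 macrophage markers were tested, and Cd14, Cd53 and Cd68 were not called. Without HNGMT replicate 1 the list had 0 higher and 1 lower, Cd14 at -0.25 (adjusted p = 0.0445), and its median went from 0.19 to -0.11. The mean of the 4 ran from 7.48 to 8.29 in NGMT and from 7.72 to 9.19 in HNGMT. The part of such cells in the inflammatory values was not tested.

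Of 44 fibroblast and matrix genes tested, 12 rose and 4 fell, and 15 rose and 4 fell without HNGMT replicate 1. The shares over all genes tested were 4.24% higher and 9.92% lower, or 6.79% and 13.5% without that array. In the fit of all 28 arrays 11 were higher and 8 lower, where 1010 and 2757 of all 11310 genes tested were. Beside Gpc3 and Pcolce2, Prelp, a leucine-rich proteoglycan, rose by 1.51 ± 0.14. The fibrillar collagens Col1a1, Col1a2 and Col3a1 were not called, with differences of -0.12, -0.10 and -0.23. Among 26 collagens 2 rose and 2 fell, and 2 were higher and 5 lower with 28 arrays: Col14a1, which binds fibrils, rose by 0.94 ± 0.13, and Col10a1 of hypertrophic cartilage fell by 0.91 ± 0.10, as did the fibril-associated Col12a1, by 0.58 ± 0.10. Without HNGMT replicate 1, 6 collagens were higher and 2 lower. Of 21 proteases and inhibitors, 3 rose and 6 fell, and 4 were higher and 7 lower without HNGMT replicate 1. Apart from Mmp9, the urokinase gene Plau fell by 0.85 ± 0.09.

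Signalling genes were set against the same shares, 4.24% higher and 9.92% lower, or 6.79% and 13.5% without HNGMT replicate 1. In TGF-beta and BMP signalling, 4 of 40 rose and 10 fell (6 and 11 without replicate 1). Inhba, which encodes the activin A subunit, was at 10.90 to 11.11 in NGMT and 9.93 to 10.22 in HNGMT (-0.93 ± 0.10). Chrdl1, a BMP antagonist, rose by 0.72 ± 0.09. In Wnt signalling, 4 of 25 rose and 1 fell (6 and 1 without replicate 1). Wif1, a secreted Wnt inhibitor, gave 6.16, 6.12 and 6.22 against 7.91, 7.56 and 7.70, a rise of 1.56 ± 0.09. Sfrp4, another secreted Wnt modulator, fell by 1.61 ± 0.29, and the receptor Fzd6 rose by 0.81 ± 0.11. In FGF and retinoid signalling, 4 of 26 rose and 5 fell (5 and 6 without replicate 1). The FGF feedback inhibitor Spry1 rose by 1.15 ± 0.19 while Dusp6, an ERK phosphatase, fell by 0.61 ± 0.10. Of 11 Notch genes 1 rose and 0 fell (2 and 0 without replicate 1). It was Maml2, at 0.43, and its call was lost without GMT replicate 4, NGMT replicate 4 or 6, HNGMT replicate 2 or 3, or any HGMT array (adjusted p from 0.0518 to 0.142). Maml2 was also not called with the 6 arrays fitted alone (0.0901). Of 19 cell cycle genes 4 rose and 0 fell (4 and 1 without replicate 1), with Ccna2 (cyclin A2) at 0.61 ± 0.10 and Tyms at 0.56 ± 0.09.

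**Figure D4:**
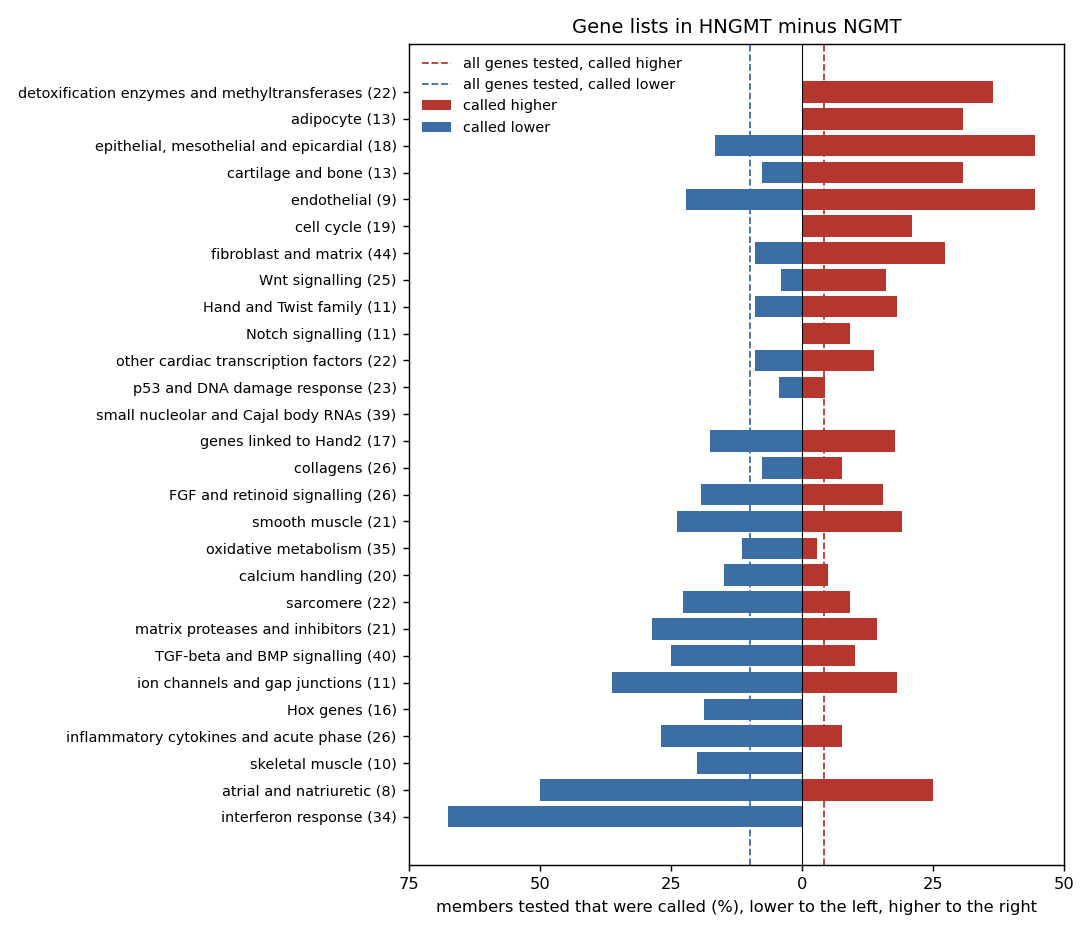
Share of tested members called higher (right) or lower (left) in HNGMT minus NGMT for each gene list with at least 8 members tested; numbers in brackets are members tested. Dashed lines give the shares over all genes tested, 4.24% higher and 9.92% lower; the interferon list reaches farthest to the left, with 23 of 34.

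Markers of other cell types were examined in the same way. Over all genes tested 4.24% were higher and 9.92% lower, or 6.79% and 13.5% without HNGMT replicate 1. Without that array epithelial, mesothelial and epicardial genes had 9 higher and 4 lower, smooth muscle genes 6 and 6, and endothelial genes 4 and 2. Epithelial, mesothelial and epicardial genes had 8 of 18 higher and 3 lower. Gpm6a, a membrane glycoprotein of mesothelium and neurons, gave 6.83, 6.96 and 7.08 in NGMT and 9.06, 8.77 and 8.75 in HNGMT (1.90 ± 0.13). Msln, mesothelin, rose by 1.42 ± 0.12 and Cdh3, P-cadherin, by 1.30 ± 0.15. Wt1, the epicardial and mesothelial zinc-finger factor (chosen after its values were seen), was 6.06 to 6.17 in NGMT and 7.25 to 7.64 in HNGMT, while the keratin gene Krt8, also chosen so, fell by 0.48 ± 0.10. The mean log2 signal of the 18 was 8.13 to 8.28 in NGMT and 8.43 to 8.63 in HNGMT. In smooth muscle genes 4 of 21 rose and 5 fell. Itga8, the alpha-8 integrin, gave 7.59 to 7.80 in NGMT and 9.46 to 9.66 in HNGMT, a rise of 1.86 ± 0.10. Des, the muscle intermediate filament desmin, gave 11.37, 11.30 and 11.44 against 9.47, 9.85 and 9.95, a fall of 1.61 ± 0.11. Acta2 and Cnn1, the smooth muscle actin and calponin, were not called (-0.16 and -0.25). Endothelial genes had 4 of 9 higher and 2 lower, yet Pecam1, Kdr, Vwf and Tie1 were above the array median on too few arrays to be tested. Cdh5, VE-cadherin, rose by 1.14 ± 0.09 with every NGMT and HNGMT array below the median. It passed the filter only through the HGMT arrays (7.24, 6.94 and 6.95), which also received Hand2. Tek, another of the 4, rose by 0.79 ± 0.12. It passed only through the HGMT and HNGMT arrays, since its GMT (6.22 to 6.72) and NGMT (6.58 to 6.75) arrays lay below the median. The places of Cdh5 and Tek among the 4 are thus partly set by the filter. In other lists the same holds for the rises of Casq2, Tbx20, Wif1, Chrdl1, Ccna2 and Inmt. In reverse, Nes passed only through groups without Hand2. The receptor Flt1 rose by 0.87 ± 0.14.

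Adipocyte genes had 4 of 13 higher and 0 lower, beside 4.24% and 9.92% over all genes tested. Without HNGMT replicate 1 they had 3 higher and 0 lower, where all genes had 6.79% and 13.5%. In HGMT minus GMT 10 were higher and 0 lower, where all genes had 7.22% and 7.73%. The medians were 0.44 with all arrays, 0.34 without HNGMT replicate 1 and 0.83 in HGMT minus GMT. The other lists here are set against the same shares. Car3, an adipocyte and muscle carbonic anhydrase, gave 10.95, 10.23 and 10.41 in NGMT and 12.30, 11.70 and 11.35 in HNGMT (1.25 ± 0.27). Cartilage and bone genes had 4 of 13 higher and 1 lower, with the phosphate regulator Phex at 1.46 ± 0.22 and the cartilage protein Comp at 1.09 ± 0.19. Of 22 detoxification enzymes and methyltransferases, 8 rose and 0 fell, and 8 rose and 2 fell without HNGMT replicate 1. Besides Inmt and Aldh3a1 these included Adh1, an alcohol dehydrogenase, at 0.66 ± 0.14. Neural and glial genes had 1 of 7 higher and 2 lower, and Nes, the intermediate filament nestin, fell by 1.46 ± 0.08. Of 10 skeletal muscle genes, 2 fell, Pvalb among them, and the fast troponins Tnni2 and Tnnt3 were not called. Hox genes had 0 of 16 higher and 3 lower. Hoxc8 gave 9.17, 8.85 and 8.93 against 7.62, 8.14 and 8.14 (-1.02 ± 0.14), and its neighbour Hoxc6 fell by 0.95 ± 0.14. Oxidative metabolism genes had 1 of 35 higher and 4 lower, and 0 higher and 9 lower without HNGMT replicate 1, where 13.5% of all genes were lower. With array weights the same list had 3 higher and 17 lower, where 1714 and 2619 of all 11310 genes tested were. Of 23 p53 response genes 1 rose and 1 fell, and 2 were higher and 1 lower without HNGMT replicate 1.

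Most genes that changed on adding Hand2 with NKX2.5 also changed, in the same direction, without it. HGMT minus GMT, which shares no array with HNGMT minus NGMT, had 817 genes higher (7.22%) and 874 lower (7.73%). Each gene's spread was estimated over all 12 arrays for both comparisons, so their calls are not independent. Of the 1601 genes changed with NKX2.5, 1069 were called in the same direction without it. That is 66.8% of the calls with NKX2.5 and 63.2% of those without, and 0 genes were called in opposite directions. The count of 1691 without NKX2.5 was 3168 without HNGMT replicate 1, 1109 without GMT replicate 3 and 1098 without HGMT replicate 3. HNGMT replicate 1 is not part of HGMT minus GMT and enters its calls only through the shared estimate of spread. The shared calls in these 3 fits were 1855, 842 and 813, which is 80.8%, 56.6% and 60.6% of the calls with NKX2.5. Of the calls without NKX2.5 they were 58.6%, 75.9% and 74%. Among the 147 beyond 2-fold, 145 were called in the same direction, the exceptions being Lyz2 and Il6. Across the 11310 genes, which are not independent, the 2 differences had a Pearson correlation of 0.87, and 0.94 without HNGMT replicate 1. All 12 arrays share 1 series and scaling.

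**Figure D5:**
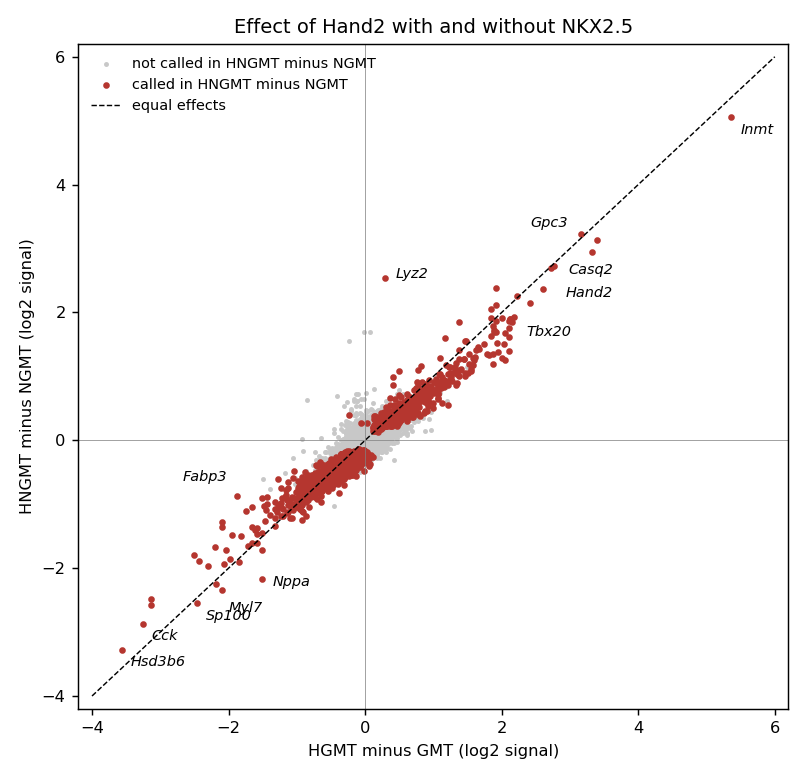
Difference of each gene with Hand2 in the presence of NKX2.5 (vertical, HNGMT minus NGMT, log2) against that in its absence (horizontal, HGMT minus GMT, log2). Red points are the 1601 genes called in HNGMT minus NGMT and the dashed line marks equal effects; most large changes lie near it, and Lyz2 lies far above it.

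The difference between the 2 effects was tested as the interaction of Hand2 and NKX2.5. No gene was called in it by limma with all arrays: 355 genes (3.14%) had an unadjusted p under 0.05, and the smallest adjusted p was 0.861. The smallest adjusted p ranged from 0.0303 to 1 over the alternative settings that estimate it. With array weights 1 gene was called, Echdc2, whose rise was 0.37 with NKX2.5 and 0.68 without it. The interval of the interaction had a median half-width of 0.25 log2. Among the 147 genes beyond 2-fold it lay within 1 log2 unit of 0 in 121, so for these a 2-fold difference between the effects lies outside the 95% interval. It contained 0 in 120.

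In 108 of the 147 genes the change was smaller with NKX2.5 than without it, and in 117 when HNGMT replicate 1 was left out. Of the 27 genes whose interval excluded 0, 25 were smaller with NKX2.5. None of the 27 was called. Gpr165 fell by 2.58 with NKX2.5 and by 3.14 without it (interval of the difference 0.07 to 1.06). Fibin fell by 2.49 with it and fell by 3.13 without it (interval 0.13 to 1.14). Gpr165 was equally dim in both groups with Hand2 (5.73 to 5.75 in HGMT, 5.73 to 5.8 in HNGMT), below the array median. Its falls thus differed mainly in starting level, which GMT replicate 5 raised (9.35, against 8.63 and 8.67 on the other GMT arrays). For Fibin that array was also high (9.05, against 8.33 and 8.32). Both groups with Hand2 were again below the median (5.35 to 5.61 in HGMT, 5.83 to 5.98 in HNGMT). Fabp3, the heart fatty acid binding protein, fell by less than 2-fold with NKX2.5 and is not among the 147. It gave 9.18, 9.14 and 9.29 in NGMT and 8.79, 8.16 and 8.04 in HNGMT, a fall of 0.87 ± 0.16. Without NKX2.5 it fell by 1.88 ± 0.16, from 9.34 to 9.74 in GMT to 7.57 to 7.77 in HGMT, and the interval of the difference was 0.50 to 1.51 (adjusted p = 0.861). Leaving out HNGMT replicate 1 took this difference from 1.01 to 0.78 (interval 0.47 to 1.08). Among the 27, Nppa was one whose fall was larger with NKX2.5, -2.17 against -1.51, with an interval of -1.12 to -0.19 (adjusted p = 0.861). Its HGMT arrays lay below the array median (5.98 to 6.38), so the size of its fall without NKX2.5 rests on dim signal. Its starting levels also differed, 7.56 to 7.87 in GMT and 10.21 to 10.81 in NGMT. Inmt (5.05 and 5.36), Gpc3 (3.23 and 3.16), Casq2 (2.72 and 2.77), Hsd3b6 (-3.28 and -3.56), Myl4 (-1.91 and -1.85) and Tnni3 (-1.86 and -1.98) had intervals that contained 0. When HNGMT replicate 1 was left out, that of Inmt was -0.83 to -0.06 and excluded 0, though Inmt was not called. The intervals of the others still contained 0. Interferon genes fell in 23 of 34 cases with NKX2.5 and in 22 without it, where 9.92% and 7.73% of all genes tested fell. Their medians were -0.46 and -0.44.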

How the data were processed

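Total RNA of MEFs was read on single-channel arrays. The deposited values are log2 signal per probe set, made by the authors; MAS5 is the tool named in the submitters' processing notes, and scaling and summarization are not stated there. Of 35556 probe sets, 21789 had 1 gene symbol, 1621 several and 12146 none in the platform annotation, which gave 19938 genes. Each gene was read by the probe set with the highest mean over all 28 arrays, which takes no account of isoforms. The 12 arrays were fitted by group means with limma 3.58.1 (lmFit, contrasts and eBayes with trend; R 4.3.3; 8 residual degrees of freedom), and p-values were adjusted by Benjamini-Hochberg over 11310 genes. The script was tested on simulated data. With 3 arrays a group, the number of arrays limits precision.

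The comparison, the 31 gene lists and the promoter motif were chosen with earlier results of these data known, and the list of small nucleolar RNAs was added after the data were seen. Lists are described by counts and medians over tested members, beside all genes tested, with no set test. Named genes are the 6 delivered factors, the 12 largest rises and falls without overlap, up to 3 called members of each list, called interaction genes and the 6 genes in which HNGMT replicate 1 is farthest from its group. Others named in the report were chosen after their values were seen or as known members of a list. Replicate numbers were checked for pairing: the correlations of same-numbered HNGMT and NGMT arrays were -0.142, -0.093 and 0.149, so the numbers were not taken as pairs. Alternatives covered the arrays fitted, normalization, the filter, probe set choice, array weights, the variance model, each array left out and a replicate block.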

Additional observations from a re-analysis of the deposited data

How the results depend on the processing

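The count of genes called in HNGMT minus NGMT (1601) stayed within 1.5 times of that value in most of the 25 alternatives. It was 813 with the 6 arrays alone, 3767 with all 28 arrays and a term for array series, 4333 with array weights, and between 900 (without NGMT replicate 6) and 2297 (without HNGMT replicate 1) on leaving out single arrays. With the replicate number as a block it was 1480, and 1405 of these were shared with the 1601. Genes beyond 2-fold numbered 147, 91 where only genes above the median on all 12 arrays were kept, and 131 to 162 on leaving out single arrays. For HGMT minus GMT the count of 1691 became 3120 with 28 arrays, 5015 with array weights, 3326 with quantile normalization without HNGMT replicate 1 (chosen after seeing the data), and 1098 (without HGMT replicate 3) to 3168 (without HNGMT replicate 1) on leaving out single arrays; it was 1109 without GMT replicate 3. The interaction had 1 gene called with array weights and 0 to 0 on leaving out single arrays.

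Of the 87 called genes named by the rule, 69 kept their call and direction in every setting in which they were tested and 0 reversed, but 30 of the 87 were not tested where a signal above the median on all 12 arrays was required. Of the 69, 45 were tested in all 25 settings. The other 18 lost the call in at least 1: Adamts12, Aldh1a2, Bves, Chrdl1, Chrna1, Gata6, Hcn4, Hoxc9, Id3, Il6, Lpl, Lyz2, Maml2, Map2, Plin4, Plk2, Trdn and Trp53inp1. Reversals were confined to 5 genes not called here. With array weights Tbx5 was 0.03, Nkx2-5 -0.03, Rny1 -0.25 and Snord22 -0.11. Leaving out single arrays gave ranges of -0.01 (without HNGMT replicate 3) to 0.07 for Nkx2-5, -0.52 to 1.22 for Rny1, -0.21 to 1.06 for Snord22 and -0.37 to 1.08 for Zfp931. The lowest values of Rny1, Snord22 and Zfp931 came without HNGMT replicate 1, and quantile normalization of the remaining arrays gave -0.55, -0.24 and -0.39. At -0.24 Snord22 was called lower by limma (adjusted p = 0.0357), while Rny1 and Zfp931 were not called. Of the genes not called with all arrays, Rnu3a, Rnu12 and Wfdc17 gained a call as rises in 1 to 5 settings. Apart from what HNGMT replicate 1 itself shows, the cause of these changes was not tested. In 36 of the 147 genes beyond 2-fold, 1 group lay wholly below the array median, so the size of those folds rests on dim signal.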
